A study of Macaca fascicularis with 23 samples.

Results

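The genes described here are 10 genes of antigen processing and of the interferon response: TAP1, TAP2, TAPBP, PSMB8, PSMB9, ISG15, IFI6, GBP1, MX1 and ZC3HAV1. They were chosen by name, with earlier results of the same libraries known, and all 10 were found among the 8415 genes analysed. Their levels were followed in 21 libraries of cynomolgus monkey (Cm) pluripotent stem cells (PSCs) and in 2 libraries of Cm somatic cells. A set of 7 lines was grown in each of 3 media, and every culture gave 1 library. CMK6, TRSK and CMK9 are embryonic stem cell (ESC) lines. The other 4 are induced (iPSC) lines reprogrammed from cells of a single foetus, iPS-L3 and iPS-L6 from its liver, iPS-S6 as well as iPS-S12 from its stomach. The iPSCs had received episomal vectors for reprogramming factors and an shRNA against p53. Primed PSCs grew in bFGF/KSR medium. Naïve-like PSCs grew in K5cLD medium, which holds LIF, doxycycline (Dox) and the inhibitors or activators CHIR99021, forskolin, kenpaullone, SB590885 and Gö6983, and they carried PiggyBac vectors that express human KLF2 and NANOG under Dox. Differentiated cells carried the same vectors and were sampled in K5c medium, after LIF and Dox had been withdrawn. The labels describe feeder-free culture on laminin for primed and naïve-like cells. The liver and stomach libraries came from cells of that foetus kept in a serum medium with insulin, HGF and EGF.

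MHC class I molecules show peptides from inside the cell to T cells. The proteasome cuts the peptides, and under interferon its catalytic subunits are replaced by those of the immunoproteasome, among them PSMB8 and PSMB9. TAP1 and TAP2 together form the pump that carries peptides into the endoplasmic reticulum, and TAPBP (tapasin) holds the class I molecule at this pump while a peptide is loaded. ISG15, IFI6, GBP1, MX1 and ZC3HAV1 belong to the genes that cells switch on after interferon. ISG15 is a ubiquitin-like protein that is attached to other proteins, IFI6 is a small membrane protein, GBP1 and MX1 are large GTPases that act on microbes and viruses, and ZC3HAV1 (ZAP) binds CpG-rich viral RNA and leads it to decay. Pluripotent cells are known for a weak interferon response and low class I presentation.

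Levels are given in RPM, the reads of a gene scaled to a common number of mapped reads, from 3′-end reads, so that 1 transcript gives about the same number of reads whatever its length. The reads behind a library, derived from the RPM that 1 read is worth, numbered 861000 to 7986000 (median 3004000). The 5 shallowest PSC libraries were primed and naïve-like iPS-L6, differentiated iPS-L3 and iPS-S6, and naïve-like CMK9, at 861000 to 1158000 reads. The level of 3 reads, taken as the floor for detection, lay between 0.376 and 3.49 RPM, and it covers counting error only. Among primed libraries iPS-S12 had the lowest mean correlation with the others of its medium (Pearson's r across 2776 expressed genes, 0.872), and among naïve-like libraries CMK6 had the lowest (0.891). Primed CMK9 was closer on average to the naïve-like libraries (0.891) than to the other primed ones (0.886), and the other 20 libraries were closest to their own medium. Library numbers ran by medium, so a batch of preparation, if there was one, and the medium cannot be told apart. In these bulk samples fewer cells that make a transcript and less transcript per cell cannot be told apart either.

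The 10 genes fell into 3 patterns. ZC3HAV1 had the highest median of them in primed and in naïve-like cells (IFI6 had it in differentiated cells, at 17.8 against 15.3 RPM) and was 3.29-fold higher by its median in naïve-like than in primed cells, with no overlap between the groups. MX1, ISG15, IFI6, TAP1 and TAPBP had reads in most PSC libraries, at 33.5 RPM or less, and varied between lines. PSMB8, PSMB9, GBP1 and TAP2 did not exceed 3.03 RPM in any PSC library, with PSMB9 at or above the floor in 9 of the 21, PSMB8 in 4 and the others in none, and PSMB8, PSMB9 and GBP1 stood at 15.9 to 103.9 RPM in liver and stomach cells. The plot of all levels shows these patterns side by side.

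**Figure D1:**
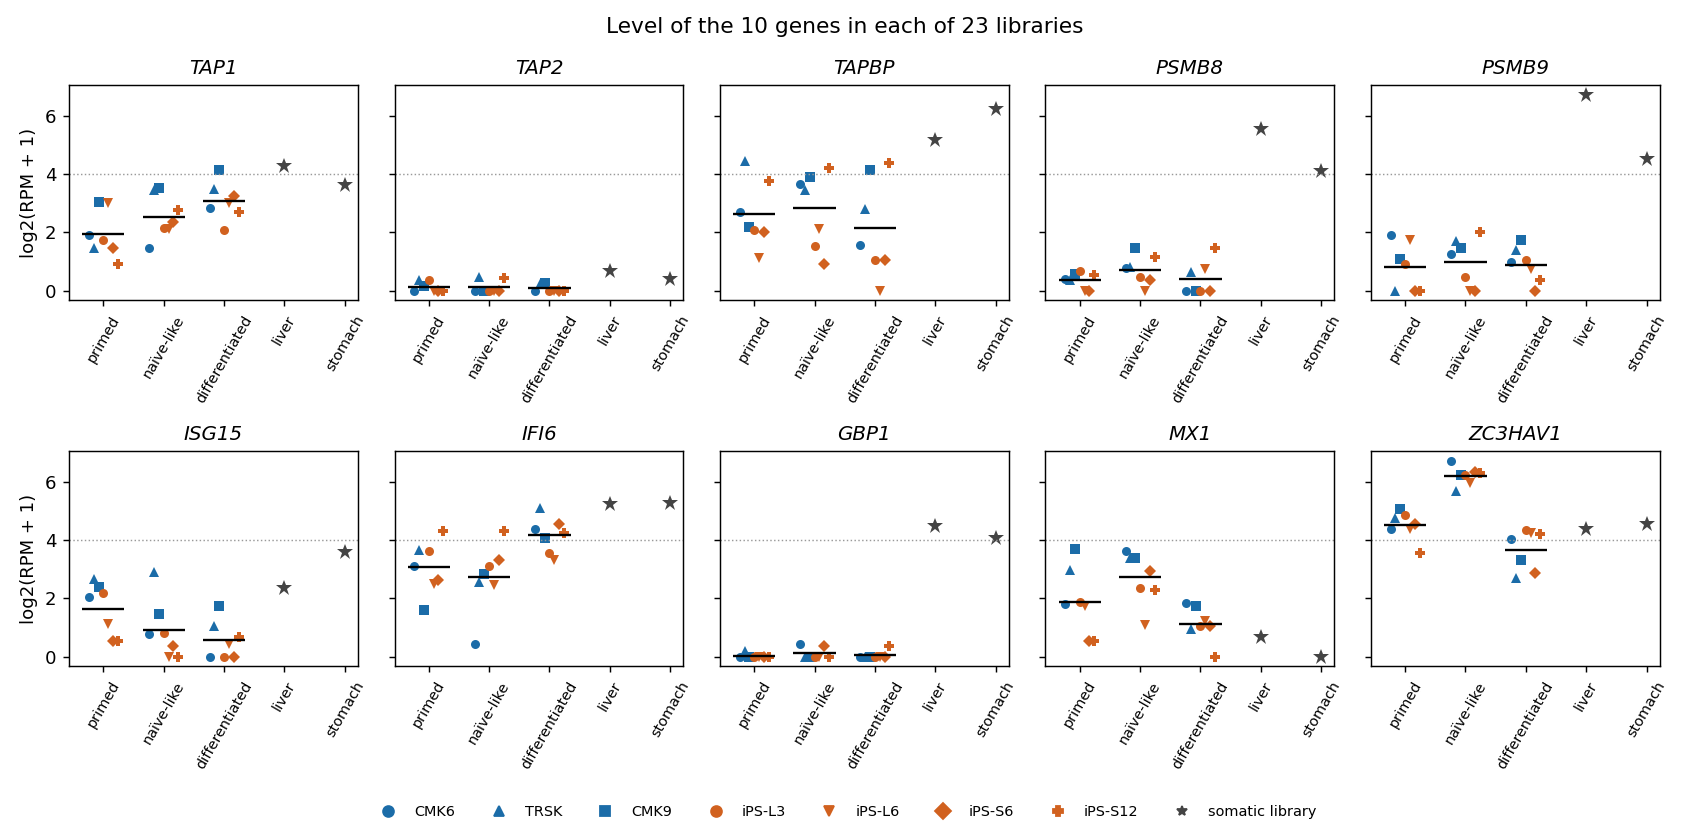
Level of each of the 10 genes as log2(RPM + 1) in every library, by medium or tissue; blue marks ESC lines, orange iPSC lines, stars the liver and stomach libraries, black bars the means of 7 lines, and the dotted line the filter at 4. ZC3HAV1 reached 50.8 to 104.6 RPM in naïve-like cells, while PSMB9 stayed at or below 3.03 RPM in PSCs and reached 103.9 RPM in liver.

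Media were compared with limma on log2(RPM + 1) over the 2776 genes above 4 on this scale (15 RPM) in at least 1 PSC library. ZC3HAV1, IFI6, TAPBP and TAP1 passed this filter, and the other 6 did not. TAP1 passed through a single library, differentiated CMK9. Benjamini-Hochberg adjusted p-values were taken over all genes tested, and because these genes were picked with results known, the p-values only place each of them within the whole table. At adjusted p under 0.05, 11.1% of all tested genes rose and 8.18% fell from primed to naïve-like cells (307 and 227 genes, or 218 and 261 with each library centred on its own median). From naïve-like to differentiated cells 6.41% rose and 7.71% fell (178 and 214 genes, or 220 and 190 with that centring), and in differentiated against primed cells 6.27% were higher and 7.13% lower. Against this background, ZC3HAV1 was called in all 3 comparisons and IFI6 in 1, and nothing about the set as a whole is read from these counts.

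In primed cells ZC3HAV1 stood at 19.7 RPM in CMK6, 26.2 in TRSK, 32.8 in CMK9, 27.9 in iPS-L3, 19.8 in iPS-L6, 22.6 in iPS-S6 and 10.6 in iPS-S12. In naïve-like cells the same lines, in the same order, had 104.6, 50.8, 74.3, 73.6, 61.0, 78.8 and 78.7 RPM. In differentiated cells they had 15.3, 5.46, 8.86, 19.1, 17.98, 6.37 and 17.2 RPM. Every naïve-like library thus lay above every primed and every differentiated library, whereas primed and differentiated levels overlapped. The rise from primed to naïve-like cells was 1.70 on the log2(RPM + 1) scale (SE 0.27, n = 7 lines, limma adjusted p = 0.000147) and occurred in 7 of 7 lines. The fall to differentiated cells was larger, with a difference of -2.54 (SE 0.27, limma adjusted p = 6.11e-07) and again in 7 of 7 lines. By their medians the naïve-like level was 4.84 times the differentiated one. With the primed iPS-S12 and naïve-like CMK6 libraries left out, the lowest primed and the highest naïve-like library for this gene, the rise was 1.46 (limma adjusted p = 0.000985). With the ESC lines alone, which leaves 3 lines, the rise was 1.48 and not called (limma adjusted p = 0.128), and with the iPSC lines alone it was 1.87 (limma adjusted p = 0.00289).

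Differentiated cells also held less ZC3HAV1 than primed cells, but by less and with less certainty. The difference was -0.84 (SE 0.27, limma adjusted p = 0.0380), lower in 6 of 7 lines and higher in iPS-S12. It was not called without CMK6, TRSK, CMK9, iPS-L3 or iPS-S6, at limma adjusted p between 0.0502 and 0.137. Without the 5 shallowest PSC libraries it was -0.84 at limma adjusted p = 0.100. In liver ZC3HAV1 stood at 20.0 RPM (34 reads) and in stomach at 22.4 RPM (69 reads), within the primed range, and either value lay above 10 of the 21 PSC libraries.

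IFI6 was called only from naïve-like to differentiated cells, where it rose while ZC3HAV1 fell. In primed cells it stood at 7.69 RPM in CMK6, 11.8 in TRSK, 2.00 in CMK9, 11.2 in iPS-L3, 4.65 in iPS-L6, 5.21 in iPS-S6 and 19.05 in iPS-S12. In naïve-like cells the lines had 0.346, 4.93, 6.04, 7.55, 4.43, 9.05 and 18.9 RPM, and the lowest of these, in CMK6, rested on 1 read. In differentiated cells they had 19.6, 33.5, 15.8, 10.6, 8.99, 22.3 and 17.8 RPM. IFI6 was highest in iPS-S12 among primed and among naïve-like libraries, and in TRSK after differentiation, where iPS-S12 was the median line. The groups overlapped. Naïve-like and primed cells differed by -0.35 (SE 0.46, limma adjusted p = 0.648). From naïve-like to differentiated cells IFI6 rose by 1.46 (SE 0.46, limma adjusted p = 0.0362), higher in 6 of 7 lines. This call was lost without any line but iPS-S12, at limma adjusted p between 0.0503 without iPS-L3 and 0.149 without CMK6, where the rise was 1.04. Without primed iPS-S12 and naïve-like CMK6 the rise was 1.07 (limma adjusted p = 0.0601). Differentiated cells exceeded primed cells by 1.11 (SE 0.46, limma adjusted p = 0.113), and without those 2 libraries by 1.32 (limma adjusted p = 0.0169).

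**Figure D2:**
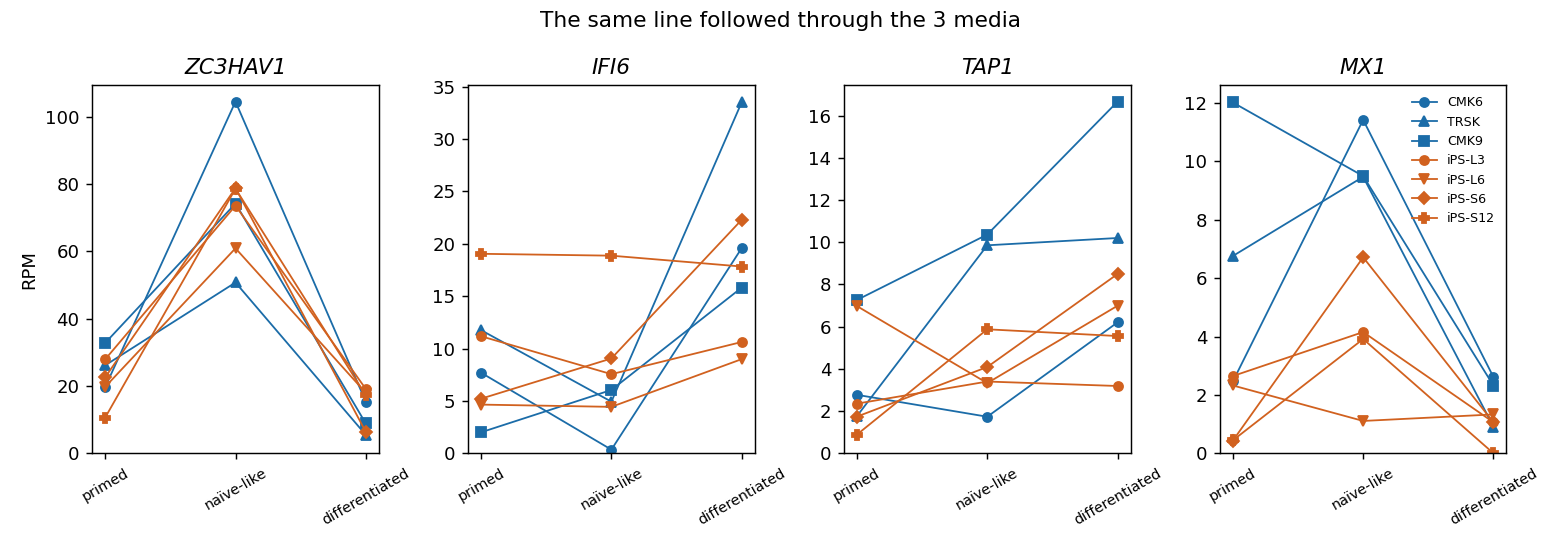
RPM of ZC3HAV1, IFI6, TAP1 and MX1 in primed, naïve-like and differentiated cells, with a line for each of the 7 cell lines (blue ESC, orange iPSC). ZC3HAV1 peaked in naïve-like cells in 7 of 7 lines. TAP1 was higher in differentiated than in primed cells in 7 of 7, but in iPS-L6 by only 0.003 on the log2(RPM + 1) scale. The TAP1 difference was not called (limma adjusted p = 0.0610).

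MX1 and ISG15 never reached the filter in PSCs, and their medians by medium were 0.333 to 6.72 RPM. MX1 stood in primed cells at 2.46 RPM in CMK6, 6.76 in TRSK, 12.02 in CMK9, 2.65 in iPS-L3, 2.32 in iPS-L6, 0.434 in iPS-S6 and 0.443 in iPS-S12. In naïve-like cells the lines had 11.4, 9.47, 9.50, 4.15, 1.11, 6.72 and 3.92 RPM, and in differentiated cells 2.61, 0.911, 2.32, 1.06, 1.33, 1.06 and 0 RPM. The differentiated values were low in every line and overlapped those of naïve-like cells only through iPS-L6, whose naïve-like value rested on 1 read. In a fit of all 8415 genes with no filter, MX1 differed between differentiated and naïve-like cells by -1.61 (SE 0.49, lower in 6 of 7 lines), at limma adjusted p = 0.0908. With the line as a block in that fit the limma adjusted p was 0.0357. The size of the difference ran from -2.40 with a pseudocount of 0.1 to -0.82 with one of 5. Against primed cells, naïve-like cells differed by 0.86 (SE 0.49, limma adjusted p = 0.495, no filter).

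ISG15 stood in primed cells at 3.08 RPM in CMK6, 5.29 in TRSK, 4.26 in CMK9, 3.53 in iPS-L3, 1.16 in iPS-L6, 0.434 in iPS-S6 and 0.443 in iPS-S12. The last 3 of these values were 1 read each. In naïve-like cells only TRSK, at 6.44 RPM (17 reads), was at or above the floor of its library, and the others were at 0 to 1.73 RPM. In differentiated cells TRSK at 1.09 RPM and CMK9 at 2.32 RPM were above the floor, and CMK6, iPS-L3 and iPS-S6 had no read. The difference between differentiated and primed cells was -1.08 (SE 0.46, lower in 6 of 7 lines, limma adjusted p = 0.309, no filter). It moved to -2.40 with a pseudocount of 0.1, so its size is not set by these reads. GBP1 had no read in 17 of the 21 PSC libraries. It stood at 0.346 RPM in naïve-like CMK6 and at 0.292 RPM in naïve-like iPS-S6 and differentiated iPS-S12, 1 read each. In primed TRSK it stood at 0.147 RPM, less than 1 read is worth there. GBP1 is one of a family of similar neighbouring genes, so its few reads may be shared with them.

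Of the peptide pump, TAP1 had reads in every PSC library, at or above the floor in all but 1 of the 21, and TAP2 almost none. TAP1 stood in primed cells at 2.77 RPM in CMK6, 1.76 in TRSK, 7.26 in CMK9, 2.35 in iPS-L3, 6.97 in iPS-L6, 1.74 in iPS-S6 and 0.886 in iPS-S12. In naïve-like cells the lines had 1.73, 9.85, 10.4, 3.40, 3.32, 4.09 and 5.87 RPM, and in differentiated cells 6.20, 10.2, 16.7, 3.19, 6.99, 8.49 and 5.55 RPM. CMK9 was the highest line in each medium, and the groups overlapped. Differentiated cells exceeded primed cells in 7 of 7 lines, though in iPS-L6 by only 0.003. The mean difference was 1.14 (SE 0.40), at limma adjusted p = 0.0610. Since TAP1 passed the filter only through a differentiated library, the fit without a filter stands beside this, with limma adjusted p = 0.159, or 0.0659 with the line as a block, and neither is a call. In the filtered fit with the line as a block the difference had limma adjusted p = 0.0227, and without the 5 shallowest PSC libraries it was 1.48 (limma adjusted p = 0.0453). The other differences, 0.61 from primed to naïve-like (limma adjusted p = 0.309) and 0.53 from naïve-like to differentiated cells (limma adjusted p = 0.432), were smaller than the spread between lines could resolve. TAP2 had 8 reads in all 21 PSC libraries together and 1 read in each of liver and stomach.

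The reads of TAP1 cannot be assigned to it with certainty. In the RefSeq annotation of assembly T2T-MFA8v1.1, the order of genes there is PSMB9, TAP1, LOC123572913, PSMB8 and TAP2, and TAP1 overlaps both PSMB9 and LOC123572913. The same limit holds for other members. ZC3HAV1 overlaps the long non-coding RNA gene LOC141409936, GBP1 overlaps LOC141407713, and PSMB8 overlaps LOC123572913. PSMB9 also overlaps the long non-coding RNA gene LOC141410127. The deposited values are named for another assembly, macFas5, whose gene models were not at hand. Whether the same genes overlap there was not checked. The reads were counted by the authors without strand. The neighbouring LOC102141956 in the deposited values, which has no symbol in the annotation used, followed TAP1 closely. It had the same number of reads as TAP1 in 3 of 23 libraries, more in 18 and fewer in 2, with r = 0.906 over the 21 PSC libraries, the highest of all tested genes. LOC102141956 was higher in differentiated than in primed cells by 1.21 (SE 0.39, limma adjusted p = 0.0385), a call lost in 9 of 20 alternative settings.

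TAPBP differed between lines more than between media. It stood in primed cells at 5.54 RPM in CMK6, 20.9 in TRSK, 3.51 in CMK9, 3.23 in iPS-L3, 1.16 in iPS-L6, 3.04 in iPS-S6 and 12.4 in iPS-S12. In naïve-like cells the lines had 11.8, 9.85, 13.8, 1.89, 3.32, 0.876 and 17.6 RPM, and in differentiated cells 1.96, 6.01, 16.4, 1.06, 0, 1.06 and 19.9 RPM. Thus iPS-S12 was high in all 3 media, while iPS-L3, iPS-L6 and iPS-S6 did not exceed 3.32 RPM in any. No comparison of media was called for TAPBP, with differences of 0.21, -0.69 and -0.47 (SE 0.68 each) and limma adjusted p of 0.863, 0.571 and 0.687.

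**Figure D3:**
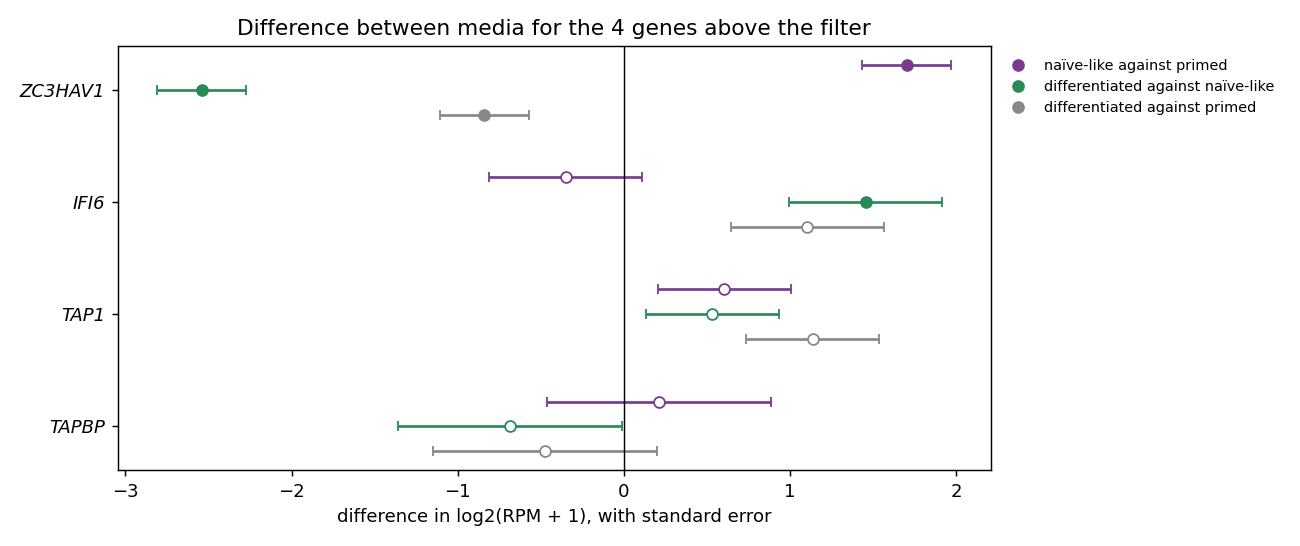
Difference in log2(RPM + 1) between media, with its standard error from limma, for the 4 genes above the filter; filled circles have adjusted p under 0.05. ZC3HAV1 differed by 1.70, -2.54 and -0.84, and IFI6 rose by 1.46 from naïve-like to differentiated cells.

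The immunoproteasome subunits were low in PSCs. PSMB8 reached at most 0.588 RPM in any primed library, 1.73 RPM in a naïve-like and 1.75 RPM in a differentiated one, and had no read in several. These values came from 9, 15 and 11 reads over 7 libraries each. PSMB9 reached at most 2.77, 3.03 and 2.32 RPM in the same order, from 23, 30 and 27 reads. The largest difference between media was that of PSMB8 from primed to naïve-like cells, 0.35 on the log2(RPM + 1) scale (SE 0.24, limma adjusted p = 0.660, no filter). It ran from 0.11 to 0.92 over the alternatives, so its size is not set by these reads. The constitutive proteasome was at a wholly different level: the 9 of its listed subunits found here summed to between 2966 and 4005 RPM in every PSC library.

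In the somatic cells, PSMB8, PSMB9, GBP1, TAPBP and IFI6 stood above their own levels in all 21 PSC libraries. Each tissue had 1 library, so these values have no replicate error and no test. PSMB9 was at 103.9 RPM (177 reads) in liver and 21.7 RPM (67 reads) in stomach, 34.3-fold and 7.18-fold the highest PSC library. PSMB8 was at 45.8 RPM (78 reads) in liver and 16.2 RPM (50 reads) in stomach, 26.1-fold and 9.25-fold the highest PSC library. GBP1 was at 21.1 RPM (36 reads) in liver and 15.9 RPM (49 reads) in stomach, against at most 1 read in any PSC library. TAPBP reached 35.2 RPM in liver and 73.3 RPM in stomach, 1.69-fold and 3.51-fold the highest PSC library, which was primed TRSK. IFI6 was at 36.98 and 37.29 RPM, little above differentiated TRSK at 33.5 RPM.

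The remaining genes did not share this. TAP1 was at 18.2 RPM in liver, just above differentiated CMK9, and at 11.4 RPM in stomach, within the PSC range. ISG15 was at 4.11 RPM (7 reads) in liver, within the PSC range, and at 11.03 RPM (34 reads) in stomach, above it. MX1 went the opposite way, with 1 read in liver (0.587 RPM) and none in stomach, although all but 1 of the 21 PSC libraries had at least 1 read. None of the 10 genes lay below all 21 PSC libraries in both tissues. A gene with a PSC library at 0 RPM could not do so. This held for MX1, ISG15, TAPBP, PSMB8, PSMB9, GBP1 and TAP2, so nothing is read from it. Of 2916 genes above the filter in any of the 23 libraries, 7.27% lay above all 21 PSC libraries in both somatic libraries and 15.5% below. Of the 7 of the 10 genes that were among the 2916, 5 lay above (TAPBP, PSMB8, PSMB9, IFI6 and GBP1). PSMB8, PSMB9 and GBP1 entered the 2916 only through the somatic libraries, so this count carries no weight of its own.

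Markers of other cell types were read in the same 2 somatic libraries, with no replicate. Of 11 blood cell markers found in the data, 6 lay above all PSC libraries in both somatic libraries. The share of all 8415 genes that did so, with no filter, was 3.4%. No floor was applied, and CD48 (0.324 RPM) and LST1 (0.649 RPM) were below it in stomach. The 11 markers summed to 129.1 RPM in liver, 20.1 RPM in stomach and 2.34 to 9.93 RPM in PSCs. In liver FCER1G stood at 47.5 RPM, AIF1 at 27.0, CD53 at 20.0 and CD48 at 15.9, whereas the pan-leukocyte gene PTPRC was at 1.17 RPM (and 0 in stomach), and CD2, a T cell gene, was at 0 in both. CD247, at 0.587 RPM in liver and 0.973 RPM in stomach, lay below all PSC libraries. The part of blood cells in the higher PSMB8 and PSMB9 of liver was not tested. All 7 hepatocyte markers found here, ALB and AFP among them, were at 0 in the liver library, so the label liver names the organ of origin and not hepatocytes. Of 4 fibroblast and mesenchyme markers found, COL1A2 (4832 RPM in liver and 4506 in stomach) and PDGFRA (21.1 and 9.73 RPM) lay above all PSC libraries in both tissues, PRRX1 (13.5 and 37.9 RPM) in stomach only, and TWIST1 (0.587 and 5.84 RPM) in neither. Of 7 stomach markers found, 4 lay above all PSC libraries in the stomach library, CLDN18 at 188.1, TFF2 at 166.4, CTSE at 140.4 and TFF1 at 89.5 RPM, whereas TFF3 was at 1.297 RPM and PGC and SOX2 were at 0. Of 4 endothelial markers found, 0 lay above all PSC libraries in both tissues, and SELP (3.89 RPM) did so in stomach only. KDR was at 1.76 RPM in liver and 0.973 RPM in stomach, beside up to 47.7 RPM in PSCs.

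**Figure D4:**
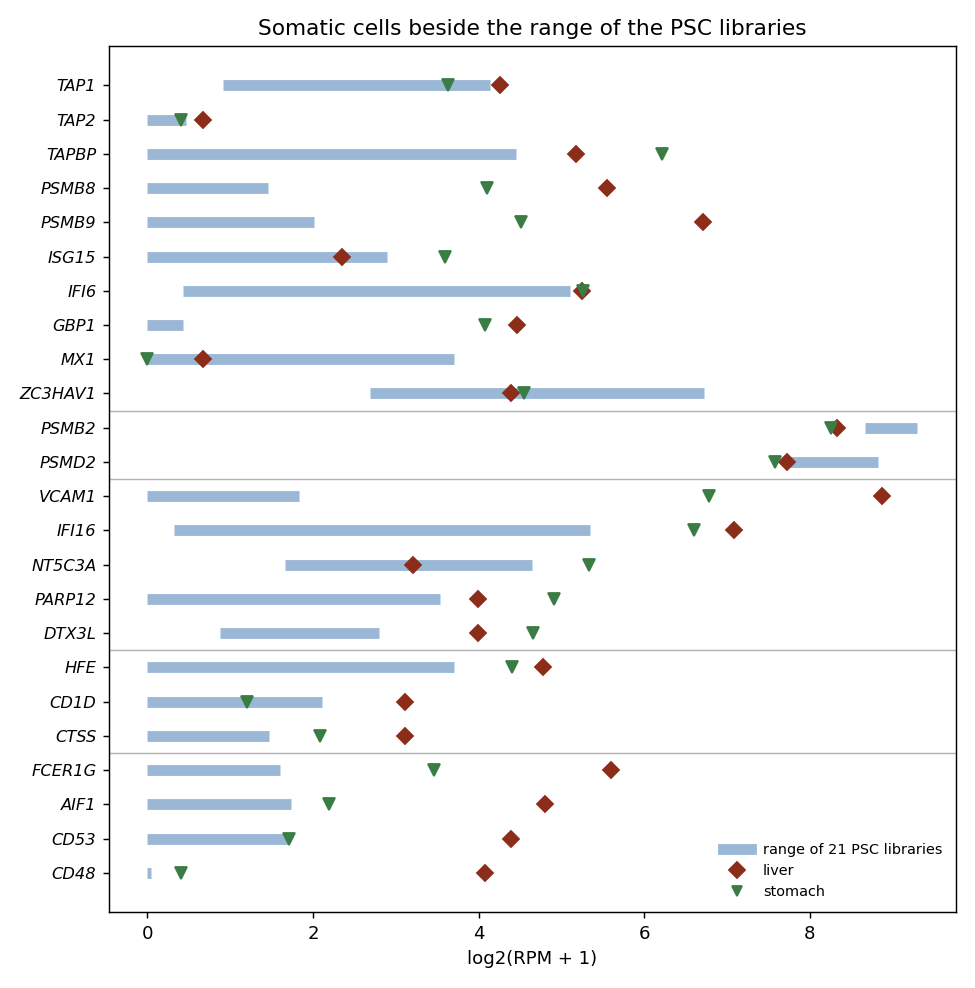
Level as log2(RPM + 1) in liver (diamonds) and stomach (triangles) beside the range of the 21 PSC libraries (bars), for the 10 genes, 2 constitutive proteasome subunits, 5 other interferon-stimulated genes, 3 MHC-related genes and 4 blood cell markers, from top to bottom. PSMB8, PSMB9 and GBP1 lie clear of the PSC range in both tissues, PSMB2 below it, and MX1 at its lower end.

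ESC and iPSC lines were compared on the mean of each line over its 3 media, 3 lines against 4. Since the iPSC lines share 1 foetus, the donor and the way of derivation cannot be told apart. Depth was also unequal, since all of the 5 shallowest PSC libraries but naïve-like CMK9 were of iPSC lines. The part of depth in these means was not tested. MX1 averaged 2.60 ± 0.30 (log2(RPM + 1), SD, n = 3) in ESC lines and 1.39 ± 0.34 (n = 4) in iPSC lines, and the lowest ESC line, at 2.43, lay above the highest iPSC line, at 1.76. The difference of -1.21 (SE 0.28) had limma adjusted p = 0.256 in the fit without a filter. ISG15 averaged 1.66 ± 0.66 in ESC lines and 0.55 ± 0.31 in iPSC lines, with overlap (difference -1.11, SE 0.36, limma adjusted p = 0.455, no filter). PSMB9 averaged 1.28 ± 0.21 and 0.61 ± 0.40, with no overlap and limma adjusted p = 0.548 (no filter). How many of all genes separate the line types without overlap was not counted, so nothing is read from either separation. MX1 and PSMB9 were below the filter, and several iPSC values of each rested on at most 2 reads. ZC3HAV1 averaged 4.77 ± 0.34 and 4.82 ± 0.24, a difference of 0.05 (SE 0.21, limma adjusted p = 0.942).

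TAPBP averaged 3.20 ± 0.49 in ESC lines and 2.02 ± 1.41 in iPSC lines, and the difference of -1.19 (SE 0.66) had limma adjusted p = 0.427. Without iPS-S12, the line in which it was high, the difference was -1.89 (limma adjusted p = 0.0136). In that fit 160 of 2776 genes were called, against 45 with all lines. The line left out was the iPSC line that ran against the difference, so this call carries no weight of its own. With all lines, 1.62% of the tested genes were called between the line types, and none of the 4 tested here was. Whether the response to the media differed between line types was tested as the difference of within-line changes. For both responses 0.0% of the tested genes were called by limma (0 of 2776 each, with 167 and 191 at an unadjusted p under 0.05, and 5 and 2 called with no filter). The largest such difference among the 4 genes was that of IFI6 after withdrawal of LIF and Dox. The change was 3.93, 2.54 and 1.26 in CMK6, TRSK and CMK9, and among iPSC lines 0.44 in iPS-L3, 0.88 in iPS-L6, 1.21 in iPS-S6 and -0.08 in iPS-S12. The iPSC lines thus differed from the ESC lines by -1.96 (SE 0.66, limma adjusted p = 0.616).

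**Figure D5:**
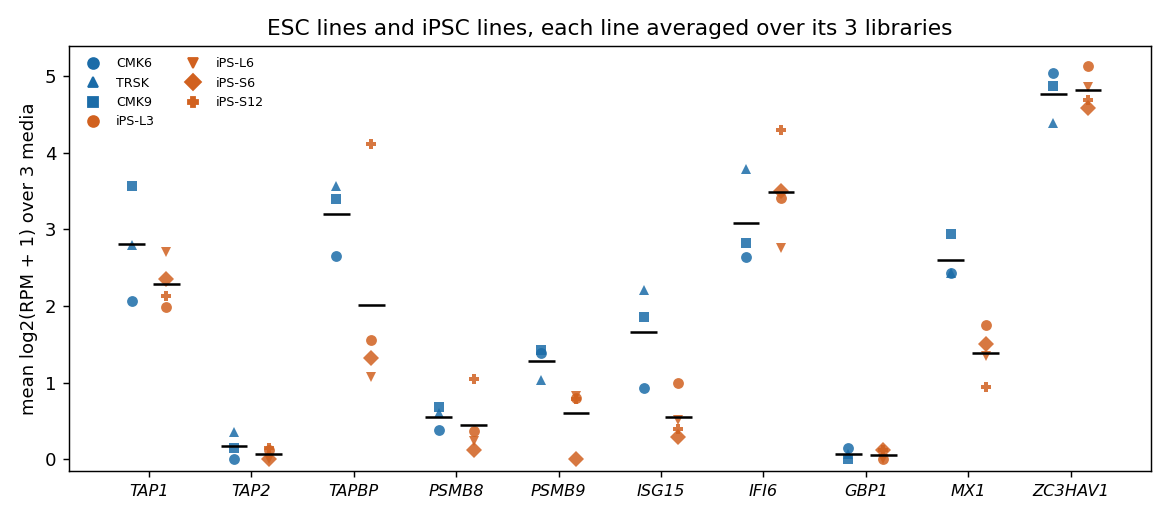
Mean log2(RPM + 1) over the 3 media for each ESC line (blue) and iPSC line (orange); black bars are the means of 3 and 4 lines. MX1 lies higher in all 3 ESC lines (2.43 to 2.94) than in all 4 iPSC lines (0.94 to 1.76), and iPS-S12 stands apart for TAPBP. The MX1 difference was not called (limma adjusted p = 0.256, no filter).

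Of 254 further genes listed for these pathways, 66 were found in the data and 24 passed the filter. From primed to naïve-like cells 2 of the 24 rose and 4 fell, and from naïve-like to differentiated cells 0 rose and 2 fell. In differentiated against primed cells 0 were higher and 3 lower. The shares of all tested genes, in the same order, were 11.1% and 8.18%, 6.41% and 7.71%, and 6.27% and 7.13%. With so few genes, nothing is read from these counts. The median differences over the 24 were -0.03, -0.03 and -0.17, beside 0.06, -0.02 and 0.05 over all genes tested. Upstream of the 10 genes, 7 of 18 listed interferon receptor and signalling genes were found, and 4 passed the filter. JAK1 was the only kinase among those found. IFNGR1, a chain of the interferon-γ receptor, had a median of 116.1 RPM in primed cells, 61.0 RPM in naïve-like and 46.2 RPM in differentiated cells. It fell by 0.76 from primed to naïve-like cells (SE 0.20, limma adjusted p = 0.0112), where the call was lost with either line type alone and without the 5 shallowest PSC libraries. It was lower in differentiated than in primed cells, with a difference of -1.05 (SE 0.20, limma adjusted p = 0.00105), which was not called with the ESC lines alone.

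JAK1, the kinase bound to these receptors, fell by 0.79 from primed to naïve-like cells (SE 0.23, 7 of 7 lines, limma adjusted p = 0.0216), a call lost without iPS-L3, iPS-L6 or iPS-S6, with no filter, with the ESC lines alone and without the 5 shallowest PSC libraries. IFNGR2 (medians 17.9, 18.7 and 17.8 RPM) and IFNAR1 (10.4, 12.5 and 9.79 RPM), the other chain of the interferon-γ receptor and a chain of the type I receptor, were called in no comparison of media. IFNAR2, the other type I chain, was below the filter with medians of 9.99, 8.90 and 5.33 RPM. IL10RB and IFNLR1, the chains of the type III receptor, had medians of at most 2.22 RPM. In the somatic cells JAK1 stood at 200.7 RPM in liver and 124.5 in stomach, and IFNAR1 at 20.0 and 22.1 RPM, all above every PSC library. These were 2 of the 7 listed receptor and signalling genes found. IFNGR1 (60.5 and 149.8 RPM) and IFNAR2 (10.6 and 11.999 RPM) lay within the PSC range in both tissues, and IFNGR2 (46.96 and 131.7 RPM) and IL10RB (2.93 and 4.86 RPM) lay above it in stomach only. IFNLR1 was at 0 in both.

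Among the other genes of antigen presentation, MICB, a stress-induced relative of class I that natural killer cells recognise, moved as ZC3HAV1 did. Its median was 15.3 RPM in primed cells, 49.3 RPM in naïve-like and 13.9 RPM in differentiated cells. It rose by 1.48 (SE 0.27, 7 of 7 lines, limma adjusted p = 0.000548), then differed by -1.72 (SE 0.27, 7 of 7 lines, limma adjusted p = 0.000102), and the rise was not called with the ESC lines alone. LAP3, an aminopeptidase that can trim peptides, rose from primed to naïve-like cells by 0.71 (SE 0.19, limma adjusted p = 0.0121), a call lost with no filter or with the ESC lines alone. Of the 9 constitutive proteasome subunits, PSMD2, part of the regulatory cap, was lower in naïve-like and in differentiated than in primed cells, by differences of -0.53 (limma adjusted p = 0.00675) and -0.39 (limma adjusted p = 0.0445). The former call was lost with either line type alone and without the 5 shallowest PSC libraries, and the latter in 11 of 21 alternative settings, the removal of CMK6, CMK9, iPS-L6 or iPS-S6 and other scalings among them. PSMB2, a core subunit, was lower in naïve-like cells by a difference of -0.21 (limma adjusted p = 0.0493), a call lost in 16 of 21 alternative settings, the removal of any single line included. The other 7 subunits were not called.

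Of 96 other interferon-stimulated genes listed, 28 were found and 4 passed the filter. MOV10, an RNA helicase that restricts viruses and retroelements, was called as lower in differentiated cells than in naïve-like cells, with a difference of -1.40 (SE 0.22), and than in primed cells, with a difference of -1.43 (SE 0.22, limma adjusted p = 0.000102 for both, 7 of 7 lines). In this it resembled ZC3HAV1, but from primed to naïve-like cells it was not called. In the somatic libraries 15 of the 28 stood above all PSC libraries in at least 1 tissue and 9 in both. Of all 8415 genes, with no filter, 11.9% did so in at least 1 tissue and 3.4% in both. No floor for detection was applied to these counts. TRIM38, counted in both tissues, stood at 1.17 RPM in liver and 0.65 RPM in stomach, below the floors of 1.76 and 0.97 RPM. The highest of the 28 were VCAM1, an adhesion molecule, at 469.6 RPM in liver and 109.0 in stomach, and IFI16, a DNA sensor, at 134.4 and 96.0 RPM. NT5C3A, a nucleotidase, stood at 39.2 RPM in stomach, PARP12, an antiviral ADP-ribosyltransferase, at 15.0 and 29.2 RPM, and DTX3L, a ubiquitin ligase, at 14.9 and 24.2 RPM. HFE, a class I-like protein of iron control, was at 26.4 and 20.1 RPM, CD1D, which presents lipids, at 7.63 RPM in liver, and CTSS, a protease of the class II pathway, at 7.63 and 3.24 RPM.

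Among all tested genes, the levels most like those of ZC3HAV1 over the 21 PSC libraries were those of MKRN1 (r = 0.900) and FAM19A4 (r = 0.871). For IFI6 they were FSTL1 (r = 0.821) and PON2 (r = 0.820), for TAPBP TFRC (r = 0.796) and S100A6 (r = 0.787), and for TAP1, after LOC102141956, AGPAT1 (r = 0.803). These libraries share lines and media, so the correlations are descriptions. Within the set, ZC3HAV1 and IFI6 ran against each other (r = -0.641, or -0.504 with the means of the media removed). Primed iPS-S12 had the lowest ZC3HAV1 and the highest IFI6 of its medium. Naïve-like CMK6 had the highest ZC3HAV1 and the lowest IFI6 of its medium, the latter on 1 read. How far r rests on these libraries was not tested. The other 5 pairs of tested genes lay between -0.223 and 0.228. Of the genes beside ZC3HAV1 in the annotation, TTC26 (IFT56) rose by 1.43 from primed to naïve-like cells (SE 0.32, limma adjusted p = 0.00318) and fell afterwards with a difference of -1.13 (SE 0.32, limma adjusted p = 0.0190). Over 20 alternative settings the rise lay between 1.10 and 1.67 and lost its call with the ESC lines alone. The fall lost its call in 6 of the 20, the removal of CMK6, iPS-L3 or iPS-S6 among them. ZC3HAV1L, the neighbour on the other side and a relative in sequence, stayed at or below 1.46 RPM. TMPRSS2, a serine protease gene beside MX1, rose by 2.29 (SE 0.42, limma adjusted p = 0.000660) and then differed by -4.11 (SE 0.42, limma adjusted p = 4.09e-07), where the rise was not called with the ESC lines alone. In stomach TMPRSS2 stood at 48.6 RPM, where MX1 had no read, and MX2, on the other side of MX1, had no read in 20 of the 21 PSC libraries and stood at 3.52 RPM in liver and 2.59 in stomach. FAM76A, beside IFI6, rose by 1.01 from primed to naïve-like cells (SE 0.26, limma adjusted p = 0.00852) and was not called with the ESC lines alone, whereas IFI6 was not called in this comparison.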

How the data were processed

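SC3-seq libraries were made by the authors from 1 ng of total RNA with spike-in RNA and sequenced at the 3′ end as 75 bp single reads. Per the labels and the submitters' processing notes, cutadapt 1.3, TopHat 1.4.1 and Cufflinks 2.2.0 were used. The authors deposited RPM, with 1 column per library and no pooling. In a library 91.7% to 94.2% of the values were whole multiples of its step (within 0.01 read), which gave its depth. The values were not treated as counts. An incomplete row was left out (1 gene). The 8415 genes hold 24.8% to 27.5% of each library's RPM, and B2M and most class I heavy chains were not analysed here. IFI6 was found by its gene ID. For 5564 genes the ID matched the RefSeq annotation.

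Values were taken as log2(RPM + 1), a deposited RPM plus a pseudocount of 1. Genes above 4 in at least 1 PSC library were tested with limma 3.58.1 in R 4.3.3 with a mean-variance trend, 3 media of 21 libraries in 1 fit. Calls were made at adjusted p under 0.05 (Benjamini-Hochberg). The genes and lists were chosen with earlier results of these data known. Beyond the 10 genes, those named are interferon receptors and JAK1, the up to 3 called genes with the largest rise or fall per list, the up to 5 highest somatic genes of the interferon and MHC lists above all PSC libraries, the 2 genes most alike to each tested one, and neighbours. Lines are separate cultures, but p-values measure the spread between these lines. The same line gives 3 libraries by its label. Deviations from the medium means correlated within lines by 0.27 on average (lowest pair 0.03) and between lines by -0.04, so the line as a block was an alternative fit. On simulated data for naïve-like against primed cells with 2776 genes, 151 of 200 genes changed by 1 and 191 of 200 changed by 2 were recovered, with 6 and 9 false calls. No sequence is printed, since none was used here. Figures and tables used Python 3.11.15, numpy 2.4.6, pandas 2.3.3 and matplotlib 3.10.9.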

Additional observations from a re-analysis of the deposited data

How the results depend on the processing

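Alternatives were pseudocounts of 0.1 and 5, no filter, a stricter filter, quantile normalization, centring, no mean-variance trend, the line as a block, 2 media per fit, 1 line type, and each line left out. Leaving out primed iPS-S12 and naïve-like CMK6, leaving out the 5 shallowest PSC libraries, and the block without a filter were added after seeing the data. Over the 4 tested members, 370 alternative values kept direction and call, 25 lost and 6 gained the call and 19 turned sign, none of them a called value. The ZC3HAV1 fall from naïve-like to differentiated cells kept its call in all 21 alternatives.

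Genes called from primed to naïve-like cells (534) numbered 302 to 527 with 1 line left out, 330 with no filter or without the shallow libraries and 15 with the ESC lines. From naïve-like to differentiated cells (392) they numbered 219 to 342 with 1 line left out, 81 with the ESC and 160 with the iPSC lines. In differentiated against primed cells (372) they numbered 241 to 392 with 1 line left out, 243 with no filter, 585 with the line as a block, 76 with the ESC lines and 214 without the shallow libraries. Between line types (45) they numbered 9 to 160 with 1 line left out, 24 with no filter or no trend, and 5, 9 and 4 in primed, naïve-like and differentiated cells alone. The conversion and withdrawal responses (0 each) had 5 and 2 with no filter.

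Members called from primed to naïve-like cells (1) stayed at 1 with 1 line left out and were 0 with the ESC lines. From naïve-like to differentiated cells (2) they were 1 to 2 with 1 line left out, and 1 with a pseudocount of 0.1, no filter, either line type, or the added removals of libraries. In differentiated against primed cells (1) they were 0 to 1 with 1 line left out, 2 with quantile normalization, no trend, the line as a block or without primed iPS-S12 and naïve-like CMK6, and 0 with no filter (with or without the block), 2 media or either line type. Between line types (0) they were 0 to 1 with 1 line left out. At the usual filter the block changed no call of the 4 members other than that of TAP1 in differentiated against primed cells (adjusted p = 0.0227 by limma).

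Values that turned sign were all uncalled. For TAPBP from primed to naïve-like cells the value was -0.046 with the iPSC lines, -0.11 without the shallow libraries and -0.038 (without CMK9) to 0.43 with 1 line left out. For IFI6 there it was 0.029 with the iPSC lines, 0.24 without primed iPS-S12 and naïve-like CMK6 and -0.61 to 0.04 (without CMK6) with 1 line left out. Between line types IFI6 was -0.61 in differentiated cells, and ZC3HAV1 was -0.41 in primed cells, -0.014 in naïve-like cells and -0.14 (without TRSK) to 0.19 with 1 line left out. The difference of conversion responses was 0.055 with a pseudocount of 0.1 and -0.65 to 0.57 with 1 line left out for TAP1, and -0.033 to 1.93 with 1 line left out for IFI6. That of withdrawal responses was 0.010 with quantile normalization and -0.61 to 0.071 with 1 line left out for TAP1, and -0.37 with a pseudocount of 0.1 and -0.38 to 0.80 with 1 line left out for TAPBP. The cause was not tested. For the 6 members below the filter, 190 values moved by less than the spread between lines, and the others moved with the pseudocount. TAP2 and GBP1 had at most 2 reads in any PSC library, so no difference between media can be read for them.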

Other observations

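CXCL10 and CXCL11, chemokines that cells release under interferon, were chosen after their values were seen. CXCL10 was at 9.70 RPM and CXCL11 at 8.22 RPM in differentiated CMK9, the PSC library with the highest TAP1 (16.7 RPM). In the other 20 PSC libraries CXCL10 did not exceed 1.73 RPM and CXCL11 did not exceed 0.86 RPM. In stomach CXCL11 stood at 9.73 RPM and CXCL10 at 0.32 RPM. CXCL8, a chemokine also chosen after its values were seen, stood at 764.4 RPM in stomach and 20.0 RPM in liver, beside at most 38.2 RPM in PSCs.

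In the fit without a filter, 16 of the 28 listed interferon-stimulated genes were lower and 6 higher in iPSC than in ESC lines, with 6 at 0, a median difference of -0.05 and none called (24 of 8415 genes were called, with a median of 0.0). At an unadjusted p under 0.05 (limma) there was 1 of the 28, beside 727 of all 8415 genes. For the withdrawal response 17 of the 28 were lower and 5 higher in iPSC lines, and for the conversion response 11 and 10. How many of all genes lay on either side of 0 was not counted, so nothing is read from these splits.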
